A study of Mus musculus with 6 samples.

Results

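Gene expression was compared between 2 RNA-seq libraries of primary mouse embryonic fibroblasts (MEFs): one labelled β2SP-/-, from cells homozygous for a knockout of Sptbn1, and one labelled SMAD3-/-, from cells homozygous for a knockout of Smad3. MEFs are cultures grown from the minced body of an embryo, and these came from E13.5 embryos of crosses between Sptbn1+/- and SMAD3+/- mice and were grown in medium with serum. The labels name no Cre, transgene or treatment. A cross of the 2 single heterozygotes gives no homozygote directly, and the labels give neither the further matings behind the homozygous cells nor the number of embryos in each culture. The series holds 4 more libraries, labelled wild type (WT), β2SP+/-, SMAD3+/- and the double heterozygote β2SP+/- ; SMAD3+/-, and their levels are given beside those of the pair where they place it. Each genotype had 1 library, so there is no replicate, no p-value was computed, and every difference is between 2 libraries and not between 2 genotypes. The genes compared were those with at least 1 count-per-million (CPM) in either library of the pair, which were 14170 of the 25793 genes in the tables. Of these, 12064 reached 1 CPM in both libraries, 13697 in the β2SP-/- library and 12537 in the library labelled SMAD3-/-. At the threshold, 159 of the genes compared had 1 to 1.1 CPM in their higher library, and 53 genes left out had 0.9 to 1 CPM. A gene that entered through its level in 1 library alone had to differ to some degree, so counts of genes called describe the genes measured and no others.

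Sptbn1 encodes β2-spectrin, a subunit of the spectrin tetramers that line the inner face of the plasma membrane and link it to actin filaments through ankyrins and other linker proteins. β2-spectrin has also been described as an adaptor that helps bring SMAD3 to SMAD4 after stimulation by transforming growth factor β (TGF-β). SMAD3 is phosphorylated by the TGF-β and activin receptors, enters the nucleus with SMAD4 and raises the transcription of matrix genes, contractile genes and feedback inhibitors in fibroblasts. The pair therefore sets cells that lack a proposed adaptor of the pathway beside cells that lack its transcription factor, according to the labels.

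The libraries held 6856680 counts on genes (β2SP-/-) and 21329087 (labelled SMAD3-/-). At these depths 1 CPM stood for 6.69 and 22.5 counts, and the limit that a count of 0 allows, 3 counts, for 0.448 and 0.133 CPM. Levels are CPM after scaling of the library sizes (TMM), and in the text the β2SP-/- value stands first. Higher and lower mean higher and lower in the β2SP-/- library. A fold is the ratio of scaled counts, followed in brackets by its exact 95% interval, which covers counting error only, and a gene was called higher or lower when the whole interval lay beyond 1.5-fold. Where 1 library had 0 counts the fold was computed against 3 counts and is given as a lower bound, which allows for the 0 but not for counting error in the other library.

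The 2 libraries differed in where their reads fell. Reads on no gene made up 30.9% of the records of the β2SP-/- library and 12.2% of those of the library labelled SMAD3-/-, and of the uniquely placed reads 40.9% and 80.1% were counted on genes. The 3 libraries labelled WT, β2SP+/- and SMAD3+/- resembled the former (30.9 to 32.6% on no gene) and the double heterozygote resembled the latter (11.9%). The 18S ribosomal RNA Rn18s stood at 87249 against 349 CPM and the nuclear RNA Malat1 at 36111 against 4473 CPM, whereas the small nuclear RNA Rn7sk stood at 74.4 against 4153 CPM and Rmrp, the RNA of RNase MRP, at 23.8 against 2482 CPM. In the double heterozygote, Rn18s was at 1529 CPM, Malat1 at 335 CPM, Rn7sk at 0.605 CPM and Rmrp at 0.255 CPM, so the double heterozygote had low levels of all 4. In WT, Rn7sk was at 23.6 CPM and Rmrp at 12.3 CPM. Because the double heterozygote shares the low share of reads on no gene, its level is given beside the main results. The part of these differences in any gene's ratio was not tested. Both libraries of the pair had Y-linked transcripts (Ddx3y 118 against 188 CPM) and almost no Xist, the RNA of the inactive X chromosome (1.2 against 0.311 CPM). The SMAD3+/- library had the reverse, with 2747 CPM of Xist and 0.388 CPM of Ddx3y. The part of this difference in its other levels was not tested.

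Counts on the targeted genes check the labels. Sptbn1, listed under its older symbol Spnb2, stood at 771 CPM in the β2SP-/- library and 1022 CPM in the library labelled SMAD3-/-, a ratio of 1.33-fold [1.29 to 1.37] that was below the threshold for a call. Its levels in WT, β2SP+/-, SMAD3+/- and the double heterozygote were 1419, 1071, 1556 and 695 CPM. The level thus fell in the order WT, β2SP+/- and β2SP-/-, with 1 library each. The β2SP-/- library had the second lowest level of the 6, above the double heterozygote. It still held 5160 counts on the gene, so the counts show a level below that of WT but not a complete loss of the transcript. On centring by transcript length and GC content, the log2 ratio went from -0.41 to -0.88 and Sptbn1 was called lower. Smad3 stood at 57.2 CPM in the β2SP-/- library and 106 CPM in the library labelled SMAD3-/-, so it was lower in the β2SP-/- library by 1.86-fold [1.67 to 2.07]. In the same order the other libraries had 53.3, 57.7, 79.5 and 203 CPM, and the 3 libraries labelled as carrying a Smad3 knockout allele held the 3 highest levels. The call of Smad3 was lost when the interval was widened by the spread of WT and both β2SP libraries or of all 6 libraries. Smad3 counts thus ran against the label of the library called SMAD3-/-. The deleted region of each gene is not named in the labels, gene-level counts can stay high when a single exon is lost, and a mix-up of samples was not tested.

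Of the 14170 genes, 3491 were higher in the β2SP-/- library (24.6%), 3364 were lower (23.7%) and 7315 were not called. The median log2 ratio over all of them was -0.08. For 609 genes the whole interval lay beyond 10-fold higher, and for 84 beyond 10-fold lower. These 2 counts are not alike in reach, since 3 counts stand for a higher level in the β2SP-/- library and a gene of low level can pass 10-fold more easily upward. At 5 CPM or more, 2532 genes were higher and 3163 lower. There were 315 genes with 0 counts in the library labelled SMAD3-/- and 60 with 0 counts in the β2SP-/- library. All were called, which the filter fixed in advance, since 1 CPM in the other library carries the interval past 1.5-fold. These genes are part of the counts of higher and lower genes. When the interval was widened by the spread of all 6 libraries taken as 1 group, 1220 genes were called higher and 210 lower. The shares of 24.6% and 23.7% are the background against which the counts of each gene group below are to be read. Across the genes, log2 levels of the pair correlated at 0.812, while those of β2SP-/- and WT correlated at 0.989 and those of the library labelled SMAD3-/- and WT at 0.815. Genes are not independent replicates, and these values are descriptions.

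The genes with the largest differences were named by a rule on the interval bound nearest to 1-fold, 12 in each direction, without predicted genes and without the listed histone, ribosomal protein and structural RNA genes. Among those higher were the interferon-induced chemokine Cxcl9 (99.4 against 0 CPM, at least 746-fold), the interferon-induced genes Ifi27l2a (at least 407-fold) and Oasl2 (374-fold [189 to 869.6]), and the acute-phase protein gene Saa3 (448-fold [217 to 1117]). WT, β2SP+/-, SMAD3+/- and the double heterozygote had 144, 73.6, 15.2 and 18.2 CPM of Cxcl9, so the low level was partly shared by the other libraries labelled with a Smad3 allele. The macrophage scavenger receptor gene Marco stood at 43.9 against 0 CPM. A further group is known from glia or neural tissue: the intermediate filament gene Gfap (36.2 against 0 CPM), the water channel gene Aqp4 (38.7 against 0.0444 CPM, 871-fold [155 to 34545] from 1 count in the latter) and the proteoglycan gene Ncan (97.6 against 0.311 CPM, 314-fold [151 to 784]). In the double heterozygote Gfap was at 0.573 CPM, Aqp4 at 0.573 CPM and Ncan at 0.255 CPM, so it shared their low level. SMAD3+/- had 5.91, 2.04 and 8.62 CPM of them, and WT 20.2, 21.1 and 72.5 CPM. The adhesion receptor gene Gpr133 (602-fold [205 to 2929]), Reg1 (25.3 against 0 CPM) and Tpt1p (545 against 0.666 CPM) were also among the 12. Gpr133 and Reg1 were low in the double heterozygote too (2.01 and 0.446 CPM), while Marco was not (30.4 CPM). Tpt1p is a processed copy of Tpt1, which itself stood at 10.6 against 2.62 CPM, and reads of the 2 copies can be exchanged between them by the aligner, so its ratio is uncertain.

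Among the 12 lower genes were 4 small RNA genes that the structural RNA list does not hold, Rny1, Rny3, Snord22 and Snora78, each at 0.598 CPM or below in the β2SP-/- library and at 20.1 to 69.5 CPM in the other. Ptma (6.57 against 485 CPM), H2afz (0 against 25.9 CPM), Tuba1b (4.63 against 261 CPM) and Stmn1 (0 against 17.2 CPM) encode abundant proteins of dividing cells. They share 24.9, 17.9, 67.6 and 19.2% of their 40-base words with another locus, and H2afz and Stmn1 were at most at 0.294 CPM in each of the 5 other libraries, so these 4 ratios are uncertain. Of the rest, Nqo1 encodes a quinone reductase of the oxidative stress response (4.33 against 191 CPM, 44-fold [30.6 to 65.8]), Ahrr the repressor of the aryl hydrocarbon receptor (0.299 against 39.5 CPM, 132-fold [36.5 to 1093]) and Dusp9 a MAP kinase phosphatase (0.598 against 43.1 CPM, 72.2-fold [28.1 to 265]). With the genes that share over 5% of their words left out, the next lower genes by the same rule included Ttc9, the mitochondrial gene Sdhd (4.93 against 133 CPM), the phosphatase gene Dusp5 (0.448 against 21.3 CPM) and the kallikrein gene Klk8 (0.747 against 28.3 CPM).

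**Figure D1:**
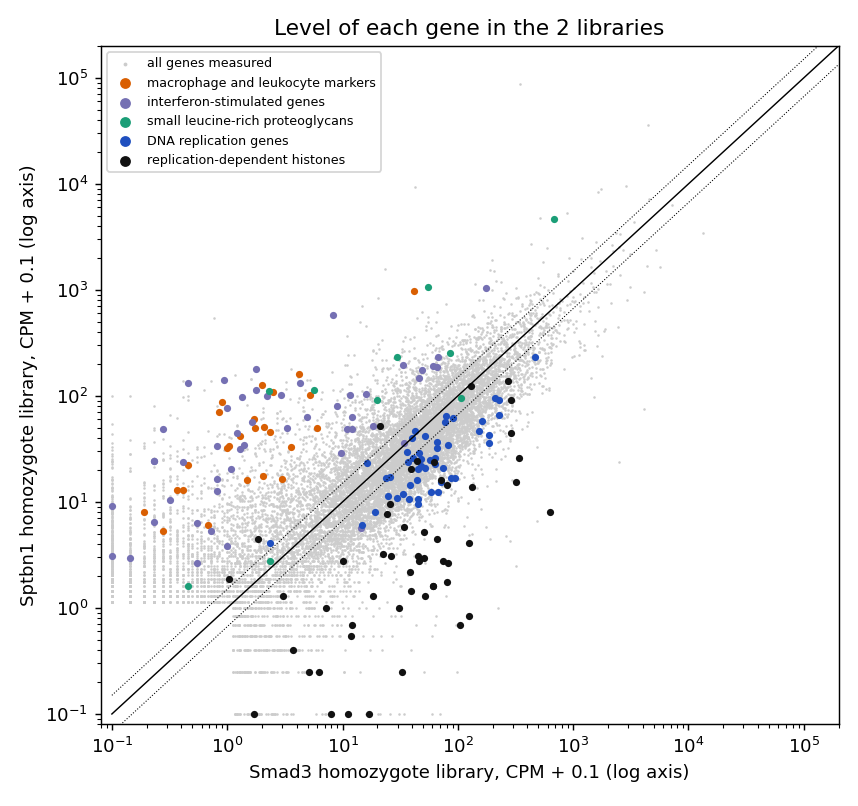
Level of each of the 14170 genes in the library labelled SMAD3-/- (x axis) and the β2SP-/- library (y axis), both CPM plus 0.1 on log axes. Each point is 1 gene, the solid line marks equal levels and the dotted lines 1.5-fold, and macrophage markers and nearly all interferon-stimulated genes lie above the lines while replication and histone genes lie mostly below them.

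Nearly every interferon-stimulated gene measured was higher in the β2SP-/- library. Interferons bind receptors that activate the kinases JAK1 and TYK2, and these phosphorylate STAT proteins, which with IRF9 bind promoters that carry the interferon-stimulated response element. The proximal promoters of 4 of these genes are shown because the element, found here by the letters GAAANNGAA on either strand, recurs in them. The sequences are the 150 bases before the RefSeq start on GRCm38.p6: chr4:156200819-156200968 (minus strand) for Isg15, chr5:120777660-120777809 (minus strand) for Oas3, chr19:34640739-34640888 (plus strand) for Ifit1 and chr7:104465194-104465343 (minus strand) for Trim30. Capitals mark the matches, which overlap in Isg15, Oas3 and Ifit1.
Isg15: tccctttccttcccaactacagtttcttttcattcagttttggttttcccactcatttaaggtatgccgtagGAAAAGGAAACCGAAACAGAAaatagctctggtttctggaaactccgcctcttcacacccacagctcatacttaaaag
Oas3: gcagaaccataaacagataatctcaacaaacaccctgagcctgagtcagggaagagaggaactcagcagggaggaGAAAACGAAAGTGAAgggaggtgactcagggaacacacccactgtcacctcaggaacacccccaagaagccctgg
Ifit1: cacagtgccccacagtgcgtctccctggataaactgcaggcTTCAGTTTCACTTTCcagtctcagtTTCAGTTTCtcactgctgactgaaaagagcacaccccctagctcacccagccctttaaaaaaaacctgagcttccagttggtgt
Trim30: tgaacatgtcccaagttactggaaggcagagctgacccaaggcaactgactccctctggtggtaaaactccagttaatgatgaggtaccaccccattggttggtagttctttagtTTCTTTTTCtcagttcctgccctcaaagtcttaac
In the windows from 250 bases before to 50 bases after the start, GAAANNGAA was present in 22 of the 36 interferon-stimulated genes with a promoter in the table (61.1%), against 8.74% of the promoters of all 10567 genes measured that had one.

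Of the 50 interferon-stimulated genes measured, 48 were higher, 1 was lower and 1 was not called, with a median log2 ratio of 4.43. Isg15, a ubiquitin-like modifier, stood at 142 CPM in the β2SP-/- library and 0.844 CPM in the library labelled SMAD3-/-, and WT, β2SP+/-, SMAD3+/- and the double heterozygote had 164, 119.6, 113 and 107 CPM. The library labelled SMAD3-/- was thus the low one, and the other 5 lay close together. Ifit1, which binds foreign RNA caps, was higher by 86.5-fold [55.4 to 143], with 158 CPM in the double heterozygote. Among the oligoadenylate synthetase genes, whose products activate RNase L, Oas3 stood at 24.4 against 0.133 CPM, Oas2 at 24.1 against 0.133 CPM and Oas1a at 23.6 against 0.311 CPM. The antiviral GTPase genes Mx1 (2.99 against 0 CPM) and Mx2 (8.97 against 0 CPM) had no count in the library labelled SMAD3-/-, and the higher ratios are at least 22.4-fold and at least 67.3-fold. Bst2, which tethers budding virions, was higher by 31.6-fold [25.5 to 39.5], and the secreted glycoprotein gene Lgals3bp by 71.5-fold [61.7 to 83.4]. The exception in direction was Ifi35, at 5.53 against 14.3 CPM, a call that was lost on centring by transcript length and GC content. Ifit2 was not called (35.9 against 33.9 CPM). Isg15, Mx1 and Mx2 share 7.81, 5.43 and 5.73% of their words with another locus, and of the 40 genes of this list with at most 5% shared, 38 were higher. For 3 of the 49 called genes the double heterozygote lay nearer the library labelled SMAD3-/- than the β2SP-/- library.

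The signalling genes upstream differed less evenly. Stat2 (197 against 33.2 CPM, 5.94-fold [5.43 to 6.51]) and Irf9 (2.82-fold [2.43 to 3.26]), parts of the complex described above, were higher, and so was Irf7, the factor that amplifies type I interferon (114 against 1.69 CPM, 67.5-fold [48.7 to 96.1]). Of the receptor chains, Ifnar2 was higher (90.3 against 39.8 CPM), while Ifnar1 (115 against 128 CPM), Ifngr1 (35.7 against 41.1 CPM) and Ifngr2 (57.5 against 81.4 CPM) were not called. The kinase gene Jak1 was not called (363 against 329 CPM) and Tyk2 was lower (15.4 against 31 CPM, 2.01-fold [1.64 to 2.5]). Of the 19 genes on this list, 9 were higher and 1 lower. The call of Tyk2 was lost on centring by transcript length and GC content. It was also lost when the interval was widened by the spread of WT and both β2SP libraries or of all 6 libraries. Nucleic acid sensors were divided in a like way, with 9 of 15 higher and none lower: Zbp1 (48.4 against 0.178 CPM), the RNA helicase genes Ifih1 (49.9 against 3.2 CPM) and Ddx58 (146 against 46.2 CPM) and the DNA sensor gene Aim2 (4.48 against 0.222 CPM) were higher. The adaptor genes Mavs (27.2 against 29.4 CPM) and Tmem173, which encodes STING (44.2 against 42.5 CPM), were not called.

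In the antigen presentation group, 11 of 19 genes were higher and 3 lower. B2m, the light chain of class I molecules, stood at 1925 against 199 CPM, a ratio of 9.69-fold [9.36 to 10], and the immunoproteasome genes Psmb8 and Psmb9 at 62.2 against 1.95 CPM and 19.6 against 0.0444 CPM. The class I heavy chain genes H2-D1 (839.9 against 20.1 CPM) and H2-K1 (106 against 11.6 CPM) were higher as well, but they share 19 and 14.8% of their words with related loci. The peptide transporter gene Tap1 was higher (33.3 against 7.46 CPM) and Tap2 was not called (10.6 against 6.09 CPM). The lower genes included Calr, the chaperone calreticulin (411 against 1549 CPM), which also belongs to the endoplasmic reticulum group below.

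Secreted inflammatory factors were higher in 24 of 34 cases and lower in 2, with a median log2 ratio of 3.39. The chemokine genes Ccl5 (65.6 against 0.222 CPM), Ccl3 (36.5 against 0.133 CPM) and Cxcl10 (2.69 against 0.0444 CPM), the cytokine genes Il1a (6.28 against 0.0444 CPM), Il1b (6.57 against 0 CPM) and Tnf (5.68 against 0.222 CPM) and the complement gene C3 (90.9 against 4.58 CPM) were all higher. The monocyte chemokine gene Ccl2 differed by less, 2.97-fold [2.78 to 3.18], at 236 against 79.5 CPM. In the double heterozygote, several of these genes were above both libraries of the pair, with C3 at 2530.4 CPM, Saa3 at 2894 CPM and Ccl2 at 2089 CPM. Il11, a cytokine gene that TGF-β induces in fibroblasts, went the other way, at 0.448 against 18.3 CPM, with 0.265 CPM in WT and 1.75 CPM in the double heterozygote, and Cxcl5 was lower too (21.2 against 63.7 CPM). Of 20 genes for NF-κB subunits and their feedback inhibitors, 2 were higher and 7 lower, among them Nfkbia (8.07 against 35.8 CPM), Relb (4.93 against 19.1 CPM) and the prostaglandin synthase gene Ptgs2 (164 against 555 CPM). The median of that list, -0.02, changed sign when ratios were centred by transcript length and GC content.

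Macrophage and leukocyte markers moved in the same direction as the interferon and inflammatory genes. Of the 29 markers listed, 25 were measured, and each of these 25 was higher, with a median log2 ratio of 5.13. The summed level of all 29 was 2147 against 84.6 CPM. In WT, β2SP+/-, SMAD3+/- and the double heterozygote the sum was 3098, 1986, 2969 and 2265 CPM, so 5 of the 6 libraries held these transcripts at like levels and the library labelled SMAD3-/- stood apart. Lyz2, the lysozyme gene of macrophages, was at 971 against 41.2 CPM, Cd68 at 49.6 against 1.64 CPM, the growth factor receptor gene Csf1r at 49.9 against 5.95 CPM, Emr1, which encodes F4/80, at 109 against 2.4 CPM, and the leukocyte phosphatase gene Ptprc (CD45) at 33.3 against 0.933 CPM. The complement genes C1qa (17.6 against 1.95 CPM), C1qb (32.1 against 0.888 CPM) and C1qc (41.8 against 1.2 CPM) followed. With the interval widened by the spread of all 6 libraries, 24 of the 25 were still called, as were 32 interferon-stimulated genes. None of the 25 was at 0 counts in either library, and the 4 not measured (Lyz1, H2-Aa, H2-Ab1 and Cd163) were below 1 CPM in both. In bulk RNA, fewer cells of a type and less RNA per cell cannot be told apart, and the part of macrophage transcripts in the interferon, inflammatory and antigen presentation values was not tested.

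**Figure D2:**
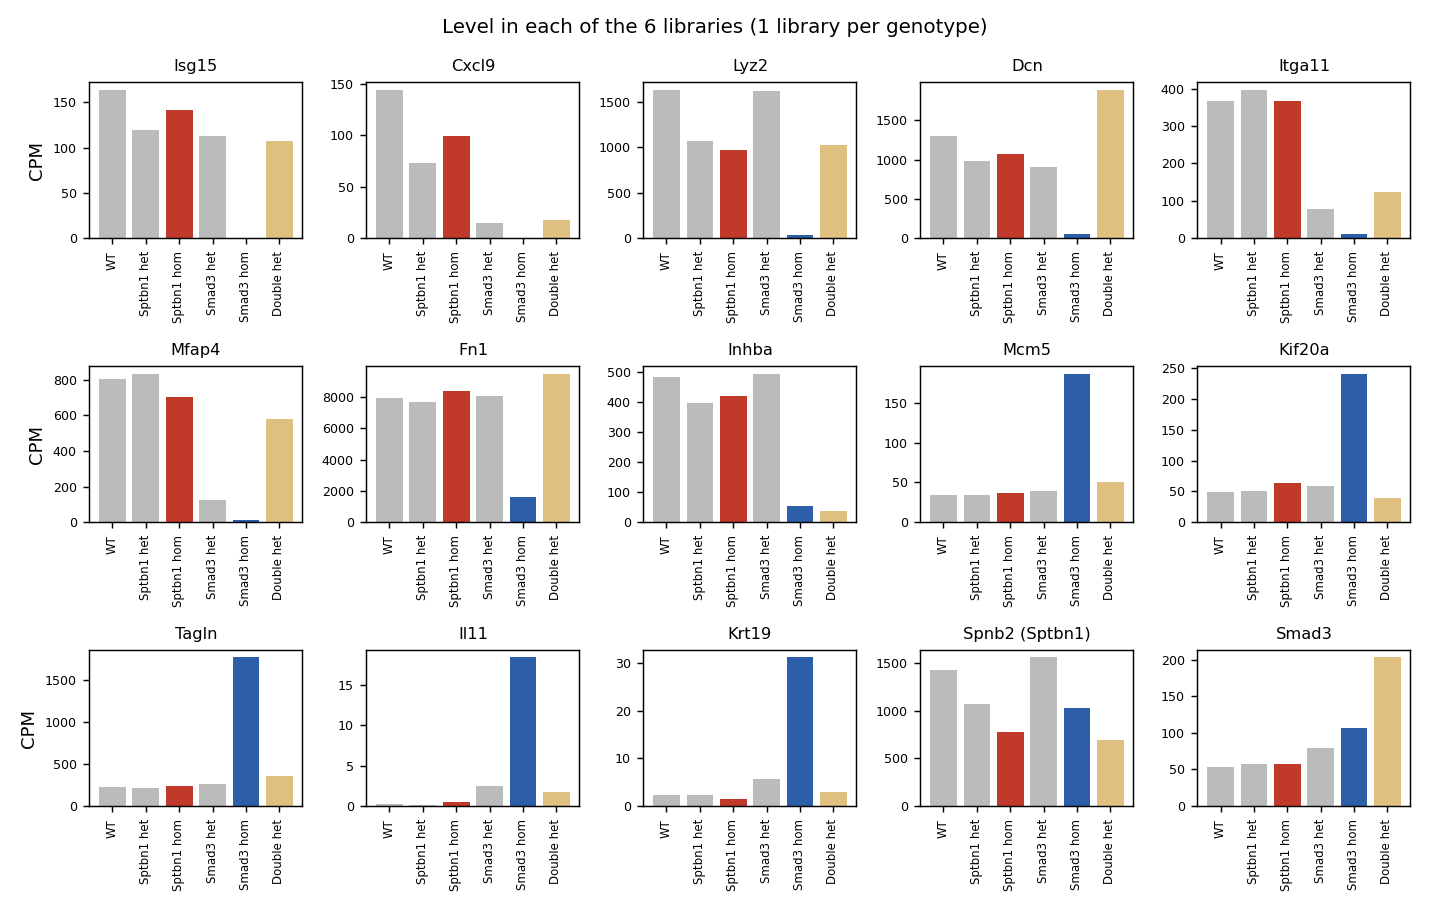
Level (CPM, linear axis from 0) of 15 genes in the 6 libraries, 1 bar per library, with the β2SP-/- library in red, the library labelled SMAD3-/- in blue, the double heterozygote in tan and the other 3 in grey (β2SP genotypes are marked Sptbn1, and hom and het stand for -/- and +/-). Isg15, Lyz2 and Dcn are lowest in the library labelled SMAD3-/-, while Mcm5, Kif20a, Tagln, Il11 and Krt19 are highest there.

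Genes of the cell division cycle were lower in the β2SP-/- library, which means higher in the library labelled SMAD3-/-. E2F factors drive the transcription of replication genes at the start of S phase, and a complex with MuvB proteins acts on mitotic genes through CCAAT boxes and cell cycle homology regions. Promoters of 6 genes with these letters are shown, again the 150 bases before the RefSeq start on GRCm38.p6. For the replication genes Mcm5 (chr8:75109359-75109508, plus strand), Mcm6 (chr1:128359706-128359855, minus strand) and Cdc25a (chr9:109875429-109875578, plus strand), capitals mark the E2F site letters TTTGGCGC on either strand.
Mcm5: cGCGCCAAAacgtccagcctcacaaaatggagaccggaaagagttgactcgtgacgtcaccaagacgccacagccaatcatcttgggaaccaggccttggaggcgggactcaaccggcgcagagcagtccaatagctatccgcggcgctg
Mcm6: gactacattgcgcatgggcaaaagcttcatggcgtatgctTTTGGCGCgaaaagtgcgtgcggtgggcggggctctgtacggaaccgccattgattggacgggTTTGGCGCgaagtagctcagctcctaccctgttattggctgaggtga
Cdc25a: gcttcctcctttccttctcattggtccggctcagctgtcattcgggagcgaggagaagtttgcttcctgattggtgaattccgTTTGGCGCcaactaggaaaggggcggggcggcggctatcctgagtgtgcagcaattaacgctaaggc
For the mitotic genes Ccnf (chr17:24251410-24251559), Cdc20 (chr4:118437344-118437493) and Ect2 (chr3:27153879-27154028), all on the minus strand, capitals mark TTTGAA and CCAAT on either strand, with no overlap between matches.
Ccnf: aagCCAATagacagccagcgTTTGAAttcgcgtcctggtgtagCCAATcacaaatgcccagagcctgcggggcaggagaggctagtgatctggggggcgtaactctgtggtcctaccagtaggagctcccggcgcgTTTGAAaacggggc
Cdc20: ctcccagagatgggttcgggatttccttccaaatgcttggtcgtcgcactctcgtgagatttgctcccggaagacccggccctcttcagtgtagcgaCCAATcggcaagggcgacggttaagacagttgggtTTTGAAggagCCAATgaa
Ect2: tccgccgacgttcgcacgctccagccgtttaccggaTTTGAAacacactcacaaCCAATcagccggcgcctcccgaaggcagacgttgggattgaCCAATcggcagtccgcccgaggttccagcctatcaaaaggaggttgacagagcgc
In the windows from 250 bases before to 50 bases after the start, TTTGGCGC was present in 8 of 38 replication genes (21.1%) and 1.07% of all promoters, and a second E2F form, TTTCCCGC, in 7 of 38 (18.4%) and 2.34%. Of 42 mitotic genes, 29 held TTTGAA (69.0%, against 14.3% of all promoters) and 29 held CCAAT (69.0%, against 43.1%). A match of letters is a description and does not show a bound site.

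Of 48 DNA replication genes, 34 were lower, none was higher and 14 were not called, with a median log2 ratio of -1.26. The 6 subunits of the MCM helicase were all lower, from Mcm7 (32.4 against 65.3 CPM, 2.01-fold [1.74 to 2.33]) and Mcm4 (94.7 against 210.4 CPM) through Mcm3 (58.4 against 161 CPM), Mcm2 (46.8 against 152 CPM) and Mcm6 (65.4 against 229 CPM) to Mcm5 (36.2 against 187 CPM, 5.18-fold [4.55 to 5.92]). For Mcm5, WT, β2SP+/-, SMAD3+/- and the double heterozygote had 34.9, 34, 39.8 and 50.8 CPM, so the library labelled SMAD3-/- was the high one of the 6. The S-phase cyclin genes Ccne1 (16.7 against 86.3 CPM, 5.16-fold [4.26 to 6.3]) and Ccne2 (12.3 against 58.9 CPM, 4.81-fold [3.85 to 6.09]), the flap endonuclease gene Fen1 (5.61-fold [4.64 to 6.85]), the polymerase gene Pold1 (5.44-fold [4.36 to 6.87]) and the sliding clamp gene Pcna (22.7 against 62.8 CPM) were lower. The licensing genes Cdc6 (11.7 against 33.2 CPM) and Cdt1 (14.2 against 38.7 CPM) and the nucleotide reductase gene Rrm2 (92.3 against 229 CPM) were also lower, while E2f1 itself was not called (23.3 against 16.3 CPM). Of the 34 called genes, 1 had a double heterozygote level nearer the library labelled SMAD3-/-. None of the 34 kept its call when the interval was widened by the spread of all 6 libraries, and 4 were lower beyond 4-fold.

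Mitotic genes were lower in 31 of 52 cases and higher in 1, with a median log2 ratio of -0.83. Cdk1, the mitotic kinase, stood at 77 against 205 CPM, a ratio of 2.66-fold [2.43 to 2.92], the kinase genes Aurka and Aurkb at 36.6 against 116 CPM and 40.3 against 83.1 CPM, and the kinesin gene Kif20a at 64.1 against 242 CPM (3.77-fold [3.41 to 4.17]). Cdc20, the activator of the anaphase-promoting complex, was at 45.6 against 166 CPM, and cyclin F, Ccnf, at 17 against 73.9 CPM. Ccnb1, cyclin B1, gave the largest ratio of the list, 13.3-fold [9.62 to 18.8], but it shares 25.4% of its words with another locus and was at 1.05 CPM in the double heterozygote, and cyclin B2, Ccnb2, which can be read beside it, was at 56.9 against 107 CPM (1.88-fold [1.68 to 2.1]). The 20 uncalled genes included Plk1 (65.7 against 91.2 CPM), Foxm1 (105 against 80.7 CPM) and Cenpf (218 against 146 CPM). With the interval widened by the spread of all 6 libraries, 1 mitotic gene stayed lower and none higher. Mki67, the gene of the Ki-67 antigen, was higher, at 864 against 335 CPM (2.58-fold [2.5 to 2.67]), so this proliferation marker went against most of its list. The summed level of the list was 5292 against 7310.0 CPM, with 4843 CPM in WT and 1841 CPM in the double heterozygote.

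Replication-dependent histone genes, whose messages end in a stem-loop and normally lack a poly(A) tail, had the lowest median of the 48 lists, -3.92, with 47 of 52 lower and 1 higher. Hist1h1b stood at 44.4 against 286 CPM, Hist1h1d at 25.7 against 337 CPM and Hist2h2bb at 7.92 against 626 CPM, and in the double heterozygote these were 0.0318, 0.382 and 0.573 CPM. The exception was Hist1h2ak (51.9 against 21.1 CPM). Of the 52 histone genes, 44 share over 5% of their words with another locus, and of the 7 that share at most 5%, 6 were lower. The structural and nuclear RNA group, to which Rn7sk and Rmrp belong, had 17 of 24 lower and 4 higher. Both groups lack poly(A) tails in most of their members, and the labels name a TruSeq RNA kit without giving the selection step, so the part of library preparation in these 2 groups was not tested.

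Inhibitors of the cycle and p53 targets were divided, with 6 of 38 higher and 16 lower. Cdkn1a, which encodes p21, was higher, at 340.4 against 112 CPM (3.04-fold [2.87 to 3.21]), with 377 CPM in WT and 284 CPM in the double heterozygote, and the tumour suppressor genes Trp53 (141 against 52.9 CPM) and Rb1 (50.7 against 18.2 CPM) were higher too. Cdkn2b, a TGF-β-induced inhibitor of CDK4, was not called (23.6 against 34.3 CPM). The apoptosis genes Pmaip1 (3.89 against 31.2 CPM), Bbc3 (2.99 against 9.33 CPM) and Bax (39.3 against 96.7 CPM) and the exonuclease gene Aen (9.12 against 81.9 CPM) were lower, as were Cdkn1b (28.1 against 50.9 CPM), Cdkn1c (22 against 47 CPM) and Cdkn2a (0.747 against 5.02 CPM). When ratios were centred by transcript length and GC content, the split of this list became 10 higher and 10 lower.

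**Figure D3:**
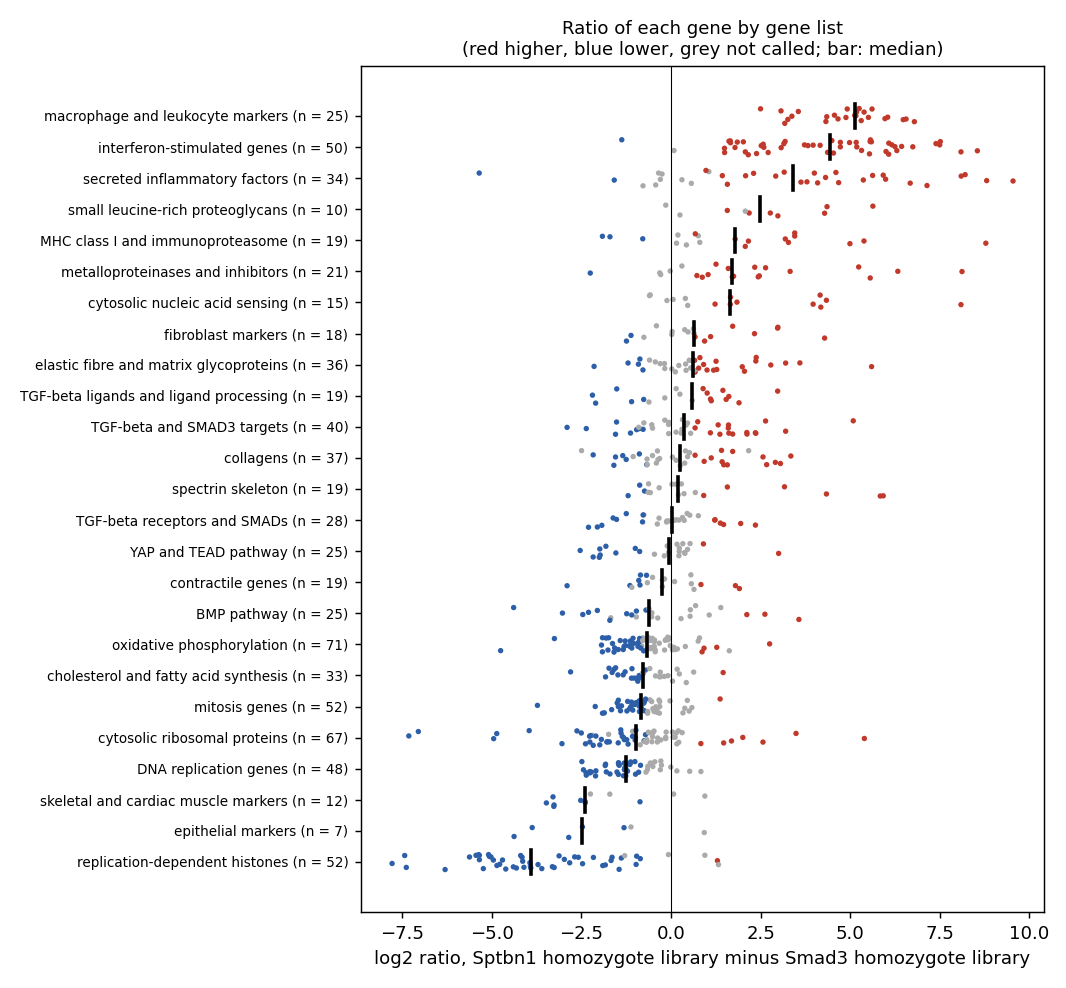
Log2 ratio (β2SP-/- library minus the library labelled SMAD3-/-, x axis) of each gene in 25 gene lists, with genes called higher in red, lower in blue and not called in grey, and a black bar at the median of each list. Macrophage markers (median 5.13) and interferon-stimulated genes (4.43) lie to the right, histone genes (-3.92) to the left, and the TGF-β receptors and SMADs are centred near 0 (0.01).

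The TGF-β pathway, the system that both targeted genes are connected with, was split at each level. Of 19 genes for ligands, latency proteins and ligand processing, 9 were higher and 5 lower. Tgfb1 stood at 46.6 CPM in the β2SP-/- library and 12.5 CPM in the library labelled SMAD3-/- (3.72-fold [3.16 to 4.39]), with 47 CPM in WT and 84.1 CPM in the double heterozygote. Tgfb2 was higher (81.1 against 37.3 CPM, 2.18-fold [1.95 to 2.43]) and Tgfb3 was not called (288 against 191 CPM). Inhba, the activin A subunit, was higher by 7.86-fold [7.34 to 8.41], at 419 against 53.3 CPM, while the double heterozygote had 36.5 CPM and WT 485 CPM. Among the proteins that hold TGF-β latent, Ltbp2 (559 against 183 CPM) and Lrrc32, which encodes GARP (377 against 176 CPM), were higher, and Ltbp1 was lower by 4.57-fold [4.35 to 4.81] (245 against 1122 CPM). Follistatin, the activin antagonist encoded by Fst, was lower at 35.4 against 152 CPM (4.3-fold [3.77 to 4.93]), so the activin subunit and its antagonist differed in opposite directions.

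Among receptors, SMADs and their regulators, 6 of 28 were higher and 8 lower, shares close to the background of all genes. The type II receptor genes Tgfbr2 (347 against 149 CPM, 2.33-fold [2.21 to 2.45]), Acvr2a (159 against 41.4 CPM, 3.84-fold [3.52 to 4.2]) and Bmpr2 (249 against 48.8 CPM, 5.11-fold [4.74 to 5.52]) were higher, while the type I receptor gene Tgfbr1 was not called (119 against 156 CPM). The receptor SMAD gene Smad2 (75.5 against 82.4 CPM) and the common SMAD gene Smad4 (98.6 against 124 CPM) were not called, with ratios of 1.09-fold [0.989 to 1.21] and 1.26-fold [1.16 to 1.38]. Smad7, the inhibitory SMAD of the TGF-β branch, stood at 44.2 against 74.8 CPM, and its interval (1.69-fold [1.49 to 1.92]) reached below 1.5-fold. The pseudoreceptor gene Bambi was lower (7.47 against 22.9 CPM), as was Smad6, the inhibitory SMAD of the BMP branch (6.87 against 33.9 CPM, 4.94-fold [3.66 to 6.8]). The median of this list was 0.01, and -0.14 on centring by transcript length and GC content.

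Known TGF-β and SMAD3 targets did not move in 1 direction: 16 of 40 were higher, 8 were lower and 16 were not called, with a median log2 ratio of 0.35. Matrix targets led the higher group. Fn1, fibronectin, stood at 8412 CPM in the β2SP-/- library and 1633 CPM in the library labelled SMAD3-/- (5.15-fold [5.08 to 5.22]), with 7913 CPM in WT and 9501 CPM in the double heterozygote. Postn, periostin, was higher by 9.17-fold [8.98 to 9.37] (4725 against 515 CPM), the collagen-binding integrin gene Itga11 by 33.9-fold [29.7 to 38.9] (366 against 10.8 CPM) and Pmepa1, a feedback inhibitor of TGF-β signalling, by 4.33-fold [4.12 to 4.54] (569.9 against 132 CPM). Itga11 was at 367 CPM in WT, 79.5 CPM in SMAD3+/- and 123 CPM in the double heterozygote, and its 3 lowest levels were those of the libraries labelled with a Smad3 knockout allele. The transcription factor genes Snai1 (49.2 against 19.8 CPM) and Snai2 (99.8 against 19.5 CPM), which repress E-cadherin, were higher as well. The lower group held Junb at 19.3 against 99.4 CPM (5.15-fold [4.32 to 6.2]) and Tagln, the actin-binding protein SM22, at 237 against 1769 CPM (7.47-fold [7.11 to 7.86]). Tagln was at 229.7 CPM in WT and 358 CPM in the double heterozygote, and the library labelled SMAD3-/- was the highest of the 6. Ctgf (746 against 543 CPM), Skil (237 against 190.2 CPM), Tgfbi (245 against 183 CPM) and Acta2, smooth muscle actin (2194 against 3141 CPM), were not called. Of the 24 called targets, 9 had a double heterozygote level nearer the library labelled SMAD3-/-.

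**Figure D4:**
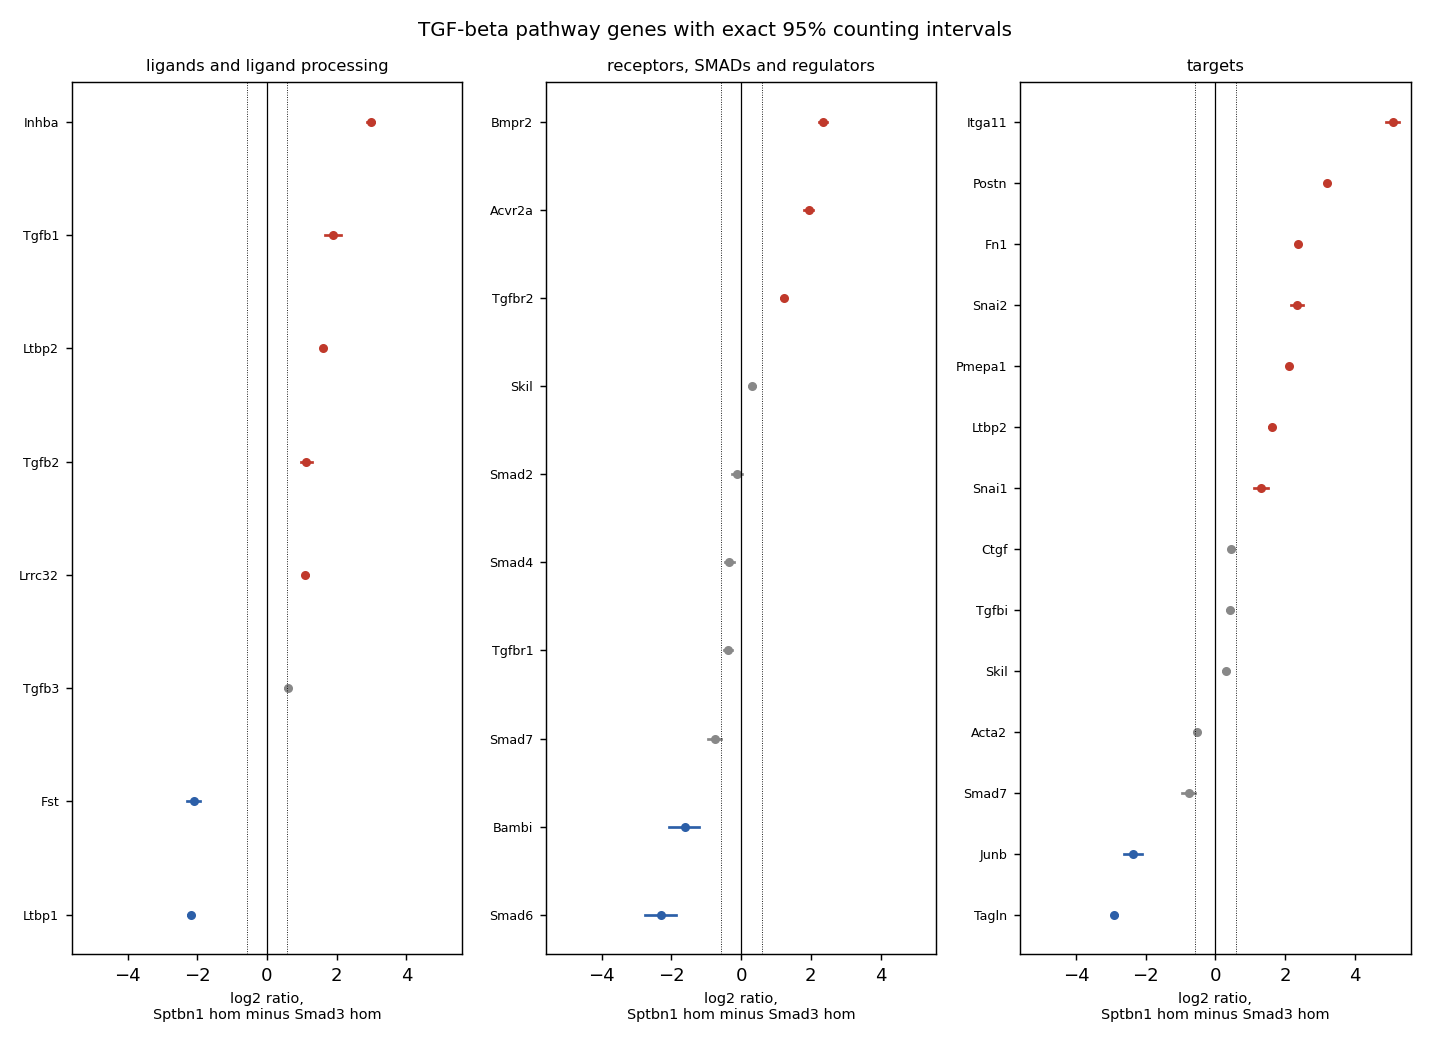
Log2 ratio (β2SP-/- library minus the library labelled SMAD3-/-, x axis) of the TGF-β pathway genes described in the text, in 3 groups, with exact 95% counting intervals, the dotted lines at 1.5-fold, and genes called higher in red, lower in blue and not called in grey. Each group of genes described in the text spans both sides of 0.

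The bone morphogenetic protein (BMP) branch, which signals through SMAD1, SMAD5 and SMAD9, leaned lower, with 10 of 25 genes lower and 3 higher. Its direct targets Id1 (12 against 65.9 CPM, 5.51-fold [4.4 to 6.99]) and Id2 (27.9 against 65.9 CPM, 2.36-fold [2.02 to 2.76]) were lower, Id3 was not called (1.53-fold [1.41 to 1.67]), and Id4 was lower (9.56 against 18.7 CPM). The homeobox target Msx1 had 3 counts in the β2SP-/- library and stood at 0.448 against 9.42 CPM (21-fold [7.09 to 103]). The ligand gene Bmp4 was not called (32 against 19.9 CPM) and Bmp7 had no count in the β2SP-/- library (0 against 1.47 CPM). Of the antagonists, Grem1 was lower (113 against 184 CPM), with 729 CPM in SMAD3+/-, and Nog was at 0.299 against 2.44 CPM. Centring by transcript length and GC content changed the split to 5 higher and 7 lower.

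Fibroblast identity was present in both libraries, but its matrix genes differed. Of 18 fibroblast markers, 8 were higher and 2 lower. Col1a1, the main chain of type I collagen, stood at 9533 against 2896 CPM (3.29-fold [3.26 to 3.33]) and its partner Col1a2 at 7249.9 against 4558 CPM (1.59-fold [1.57 to 1.61]). The mesenchymal factor gene Prrx1 (1114 against 519 CPM), the growth factor receptor gene Pdgfrb (478 against 249.8 CPM) and the surface glycoprotein gene Thy1 (988 against 197 CPM) were higher, while Pdgfra (498 against 319 CPM), Fap (17 against 11.1 CPM) and Twist1 (35.1 against 46.6 CPM) were not called. Vim, vimentin, was lower, at 2398 against 5203 CPM (2.17-fold [2.13 to 2.21]), with 2362 CPM in WT, and so was S100a4 (212 against 502 CPM).

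Among 37 collagen genes 13 were higher and 7 lower, and members of both directions were found among fibrillar chains. Fibril-associated Col12a1 (5264 against 889 CPM, 5.92-fold [5.82 to 6.02]) and Col14a1 (59.5 against 5.86 CPM, 10.1-fold [8.31 to 12.4]) were higher. Chains of the type IV network of basement membranes were lower, with Col4a1 at 508 against 1537 CPM (3.02-fold [2.92 to 3.13]), Col4a2 at 469.9 against 752 CPM and Col4a5 at 45.9 against 117 CPM. Col3a1 (4352 against 3341 CPM) and Col5a1 (1888 against 1712 CPM) were not called, Col5a2 was lower (1136 against 2096 CPM), and the cartilage collagen gene Col2a1 was lower at 33.5 against 151 CPM. The double heterozygote had 2076 CPM of Col4a1, above both libraries of the pair. For 11 of the 20 called collagens the double heterozygote lay nearer the library labelled SMAD3-/-.

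The small leucine-rich proteoglycans, which bind collagen fibrils and sequester TGF-β, leaned strongly higher: 7 of 10 were higher, none was lower, and the median log2 ratio was 2.48. Decorin, Dcn, stood at 1075 against 55.2 CPM (19.5-fold [18.3 to 20.7]), with 1301, 985, 903 and 1885 CPM in WT, β2SP+/-, SMAD3+/- and the double heterozygote, so the library labelled SMAD3-/- was the low one. Biglycan, Bgn, was at 4642 against 681 CPM, lumican, Lum, at 232 against 29.4 CPM, Prelp at 110.1 against 2.22 CPM and Podn at 113 against 5.51 CPM. Asporin, Aspn, was higher by 2.97-fold [2.78 to 3.17], and Ogn was not called (95.2 against 106 CPM). In none of the 7 was the double heterozygote nearer the library labelled SMAD3-/-.

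Elastic fibre and glycoprotein genes were higher in 17 of 36 cases and lower in 5. The microfibril gene Mfap4 stood at 702 against 14.5 CPM (48.3-fold [43.2 to 54.2]), elastin, Eln, at 125 against 31.6 CPM (3.96-fold [3.58 to 4.39]), the matricellular gene Sparc at 9004 against 1735 CPM (5.19-fold [5.12 to 5.26]) and Thbs2 at 2467 against 596 CPM. Thbs1, thrombospondin 1, an activator of latent TGF-β, was not called (6378 against 7203 CPM), nor was fibrillin 1, Fbn1 (1496 against 998 CPM). Lower were the elastic fibre genes Efemp1 (27.3 against 121 CPM) and Emilin1 (71.7 against 165 CPM). Enzymes that modify collagen were divided, with 8 of 20 higher and 4 lower: the crosslinking enzyme gene Lox was higher (3075 against 1195 CPM), as was the prolyl hydroxylase gene P4ha3 (172 against 22 CPM), and the crosslinking enzyme gene Loxl4 (18.7 against 75.2 CPM) and the collagen chaperone gene Serpinh1 (758 against 2111 CPM) were lower.

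Metalloproteinases and their inhibitors were higher in 16 of 21 cases, with a median log2 ratio of 1.71. The gelatinase genes Mmp9 (98.8 against 0.355 CPM, 278-fold [140.2 to 647]) and Mmp2 (425 against 141 CPM, 3.02-fold [2.87 to 3.18]), the collagenase gene Mmp13 (117 against 3.11 CPM), the macrophage elastase gene Mmp12 (28.5 against 0.355 CPM) and the stromelysin gene Mmp3 (219 against 21.9 CPM) were higher. The inhibitor gene Timp3 was higher (2702 against 434 CPM) and Timp1 was not called (499 against 404 CPM). The 1 lower gene on this list was Plau, which encodes urokinase (39.4 against 188 CPM, 4.77-fold [4.21 to 5.43]). Urokinase is a plasminogen activator and not a metalloproteinase. Plat, the gene of another plasminogen activator, was higher (163 against 99 CPM). Mmp9 and Mmp12 are also made by macrophages, whose markers moved the same way, and the part of these cells was not tested. Integrin genes were divided, 7 of 18 higher and 5 lower: Itga11, given above, and the fibronectin receptor gene Itga5 (446 against 236 CPM) were higher, while the laminin receptor chains Itga3 (6.57 against 51.8 CPM, 7.88-fold [5.83 to 10.9]) and Itga6 (20.3 against 159.9 CPM, 7.87-fold [6.63 to 9.41]) and the RGD-binding Itgav (415 against 706 CPM) were lower.

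In the spectrin skeleton, the group to which Sptbn1 belongs, 6 of 19 genes were higher and 3 lower. The split became 2 higher and 3 lower at 5 CPM or more, and 5 and 5 on centring by transcript length and GC content. The partner subunit α2-spectrin, Spna2, was lower at 415 against 693 CPM (1.67-fold [1.6 to 1.74]), with 455 CPM in WT. The β-spectrin genes Spnb1 (2.69 against 0.0444 CPM) and Spnb3 (3.59 against 0.40 CPM) were higher, but both were low in WT too, at 1.77 and 3.27 CPM, and Spnb1 had 1 count in the library labelled SMAD3-/-. The ankyrin gene Ank2 was higher (51.7 against 27.5 CPM), Ank1 was lower (4.78 against 11 CPM) and Ank3 was not called (87.6 against 54.8 CPM). Adducin Add1 (252 against 317 CPM) and the linker protein gene Epb4.1l2 (286 against 235 CPM) were not called, and Epb4.1l3 was lower (179 against 329 CPM). The high levels of Spna2 and Epb4.1l3 in the library labelled SMAD3-/- exceeded all 5 others, and the β2SP-/- values were close to that of WT for Spna2 and below it for Epb4.1l3 (211 CPM).

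Contractile genes were lower in 6 of 19 cases and higher in 3. Besides Tagln, the calponin gene Cnn1 was lower (82.3 against 183 CPM, 2.22-fold [2.03 to 2.43]), as were the muscle myosin gene Myh11 (44.7 against 80.8 CPM), desmin, Des (50.7 against 92.4 CPM), and Srf, the factor that drives this group (66.2 against 124 CPM). The myosin kinase gene Mylk was higher (151 against 43.5 CPM), and Tpm1 (2364 against 2683 CPM) and Myl9 (367 against 434 CPM) were not called. The double heterozygote was below both for Tpm1 (704 CPM) and Myl9 (113 CPM). The median of this list, -0.24, changed sign on centring by transcript length and GC content. Of 25 genes of the YAP and TEAD pathway 2 were higher and 9 lower. Yap1 was lower (167 against 333 CPM, 2.0-fold [1.88 to 2.13]), its target Ankrd1 was lower (51.7 against 204 CPM, 3.94-fold [3.53 to 4.4]), and the targets Ctgf and Cyr61 (549 against 576 CPM) were not called. The TEAD factor genes split, Tead1 being higher (1133 against 141 CPM) and Tead2 lower (32.3 against 187 CPM).

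Markers of other cell types showed which further transcripts the cultures held. Epithelial markers were lower in 5 of 7 cases (3 on centring), with none higher: the keratin genes Krt7 (1.2 against 17.5 CPM), Krt18 (4.33 against 31.4 CPM) and Krt19 (1.49 against 31.1 CPM, 20.8-fold [11.3 to 43.6]) were low in 5 libraries and highest in the one labelled SMAD3-/-, while E-cadherin, Cdh1, was not called (1.94 against 1.02 CPM) and Epcam was below 1 CPM in both. The summed level of all 16 epithelial markers listed was 16.4 against 101 CPM and 11.8 to 38.3 CPM in the other 4. Krt19 is also on the list of mesothelium and gonad markers, of which 4 of 10 measured were higher and 3 lower. Which cells the keratin transcripts came from was not tested. Skeletal and cardiac muscle markers were lower in 8 of 12 cases, with none higher. The myogenic factor gene Myog (0 against 2.35 CPM) and the embryonic myosin gene Myh3 (0.448 against 4.31 CPM) were lower, and Myod1 was below 1 CPM in both. Neural and glial markers were higher in 8 of 15 cases and lower in 5. The glial and neural crest genes Sox10 (14.3 against 0.489 CPM) and Ngfr (47.4 against 2.53 CPM) were higher, and the neuronal genes Tubb3 (22 against 79 CPM) and Stmn2 (13.3 against 48.3 CPM) were lower. For the glial genes the low level was shared with the double heterozygote (Sox10 1.82 CPM, Ngfr 5.76 CPM). Of 14 endothelial markers listed 7 were measured, of which 3 were higher, among them Kdr (11.7 against 4.18 CPM), and 1 lower, while Pecam1 and Tie1 were below 1 CPM in both libraries. The part of other cells in the gene groups above was not tested.

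Hox genes, which record the origin of fibroblasts along the body and limb, were higher in 11 of 32 cases and lower in 6. The higher genes lay in the B, C and D clusters and in Hoxa3, such as Hoxb5 (14.3 against 1.2 CPM), Hoxc8 (46.3 against 13.7 CPM) and Hoxc10 (16.9 against 3.24 CPM). The lower ones were Hoxa13 (0.149 against 2.4 CPM), Hoxd12 (0 against 2.49 CPM) and Hoxd13 (0.448 against 14.9 CPM, 33.3-fold [11.3 to 162]), which are known from the distal limb, and also Hoxa11 (2.69 against 12.2 CPM), Hoxa5 (4.93 against 14.3 CPM) and Hoxb2 (5.23 against 12 CPM). Hoxd13 was at 42.3 CPM in the double heterozygote and 4.16 CPM in WT. Of 39 patterning factors 9 were higher and 11 lower, near the shares over all genes, and this split became 11 and 8 on centring. The hindlimb genes Pitx1 (2.24 against 12.8 CPM) and Tbx4 (4.63 against 11.7 CPM) were lower, the forelimb gene Tbx5 was not called (7.02 against 13.8 CPM), and Tbx3 (63.5 against 18.4 CPM) and En1 (22.7 against 6.75 CPM) were higher. In cartilage and bone, Runx2, the osteoblast factor, was higher (149.7 against 11.6 CPM, 12.9-fold [11.2 to 14.8]), as was Sox9 (55.9 against 11.4 CPM), and osteopontin, Spp1, was lower (269.6 against 1256 CPM). Whether the cultures held cells of different body regions was not tested.

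In the insulin-like growth factor (IGF) system 11 of 21 genes were higher and 4 lower. Igf1 stood at 243 against 11.1 CPM (21.8-fold [19 to 24.9]), its receptor Igf1r at 417 against 166 CPM (2.51-fold [2.39 to 2.63]) and the protease gene Pappa, which frees IGF from binding proteins, at 795 against 151 CPM (5.26-fold [5.03 to 5.49]). The binding protein genes Igfbp5 (477 against 123 CPM) and Igfbp3 (346 against 147 CPM) were higher and Igfbp6 was lower (13.2 against 86.4 CPM, 6.57-fold [5.31 to 8.23]). Igf2r, the clearance receptor, was lower (336 against 557 CPM). Wnt pathway genes were higher in 14 of 36 cases and lower in 7, with the R-spondin receptor gene Lgr5 (157 against 1.07 CPM, 148-fold [98.6 to 231]), the secreted inhibitors Sfrp1 (616 against 65.3 CPM) and Sfrp4 (24.5 against 0.40 CPM) and the target Axin2 (23.6 against 5.73 CPM) higher. The ligand gene Wnt2 (0.448 against 5.91 CPM) and the deacylase gene Notum (0.299 against 6.53 CPM) were lower. The ligand gene Wnt5a was not called (149 against 96.5 CPM).

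Of 22 imprinted genes, 7 were higher and 8 lower, and neighbours in a domain did not always go together. In the Igf2 domain Igf2 was higher (1965 against 1165 CPM, 1.69-fold [1.65 to 1.72]) and the noncoding H19 was lower (1659.8 against 5664 CPM, 3.41-fold [3.35 to 3.48]), with 1120.2 CPM of H19 in WT, 465 CPM in SMAD3+/- and 4220.3 CPM in the double heterozygote. In the Dlk1 domain Meg3 was higher (743 against 79.5 CPM) and Dlk1 lower (41.1 against 132 CPM). The antisense RNA gene Kcnq1ot1 was higher (461 against 15.9 CPM) and at 4.49 CPM in the double heterozygote. Kcnq1ot1 and Airn (18.1 against 2.13 CPM) are antisense to other genes, and without a stated strand setting their counts cannot be told apart from those of overlapping transcripts.

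Housekeeping and metabolic groups leaned lower. Cytosolic ribosomal protein genes were lower in 33 of 67 cases and higher in 7, with a median log2 ratio of -0.98, such as Rpl8 (289 against 1148 CPM). Of these 67 genes, 64 share over 5% of their words with other loci, and for 30 of the 40 called the double heterozygote lay nearer the library labelled SMAD3-/-. Genes of oxidative phosphorylation were lower in 30 of 71 cases and higher in 4, and on centring by transcript length and GC content lower in 20 and higher in 9. The lower genes included Atp5a1 of the ATP synthase (329.6 against 1118 CPM), Uqcrc1 of complex III (66.9 against 257 CPM) and Sdhb of complex II (36.2 against 127 CPM). Cholesterol and fatty acid synthesis genes were lower in 18 of 33 cases and higher in 1. Fasn, the fatty acid synthase, stood at 218 against 639 CPM (2.92-fold [2.77 to 3.09]) and Acly, which makes acetyl-CoA for it, at 156 against 518 CPM (3.32-fold [3.12 to 3.54]). For Fasn the double heterozygote had 250.4 CPM and WT 237 CPM.

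In the NRF2 group 9 of 18 genes were lower and 2 higher, with Txnrd1 at 124 against 551 CPM (4.43-fold [4.13 to 4.76]), Gsr at 26.9 against 102 CPM and Gclc at 15.7 against 44.2 CPM beside Nqo1 above, while the haem oxygenase gene Hmox1 was higher (103 against 55.5 CPM). In the hypoxia and glycolysis group 10 of 28 were higher and 6 lower (11 and 3 on centring). Vegfa (301 against 91.7 CPM), Bnip3 (81.1 against 26 CPM) and Egln3 (23.2 against 6.4 CPM) were higher. The glycolytic enzyme genes Tpi1 (52.4 against 399.6 CPM) and Pkm2 (149 against 1442 CPM) were lower, with 6.7 and 18.3% of their words shared. Endoplasmic reticulum chaperones were lower in 7 of 20 cases and higher in 3 (5 and 1 on centring), with Hyou1 at 135 against 327 CPM and Pdia6 at 203 against 644 CPM. The amino acid response genes Chac1 (3.34-fold [2.84 to 3.93]) and Ddit3 (50.5 against 16.4 CPM) were higher and Phgdh was lower (18.5 against 84.4 CPM), with 3 of 19 higher and 4 lower in that list, and 9 and 2 on centring by transcript length and GC content. Phgdh shares 52.4% of its words with another locus. Immediate-early genes were divided, 5 of 20 higher and 6 lower, near the shares over all genes, with Egr1 higher (125 against 51.9 CPM), Fos lower (8.67 against 22.3 CPM) and Fosl1 lower (2.99 against 17 CPM).

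The position of the pair among the 6 libraries was the same for most called genes. Of the 3491 higher genes, 2776 (79.5%) had their lowest level of all 6 in the library labelled SMAD3-/-, and 887 (25.4%) had their highest in the β2SP-/- library. Of the 3364 lower genes, 2747 (81.7%) had their highest level in the library labelled SMAD3-/-, and 915 (27.2%) their lowest in the β2SP-/- library. Over all genes measured, the library labelled SMAD3-/- was lowest for 28.9% and highest for 33.8%, and the β2SP-/- library was lowest for 11% and highest for 10.3%. The level in WT was nearer the library labelled SMAD3-/- for 107 of the higher genes (3.07%) and 84 of the lower ones (2.5%). The double heterozygote was nearer to it for 1490 higher (42.7%) and 1777 lower genes (52.8%). For most called genes the library labelled SMAD3-/- thus lay outside the range of the 5 others. The genes were called on the levels of the pair, and the same levels enter these ranks. The shares of called genes therefore exceed those of all genes in part because of the call, and how far was not tested. The call acts in the same way on the ranks of the β2SP-/- library, whose shares were 25.4% and 27.2%.

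The ratio also moved with properties of the transcript. With genes in 5 equal bins of transcript length, the median log2 ratio went from -0.44 in the shortest transcripts through -0.32, -0.25 and -0.06 to 0.36 in the longest. In 5 bins of GC content it went from 0.11 in the lowest to -0.52 in the highest. Genes without words shared with another locus had a median of -0.18 (6575 genes), and the 270 genes with over 50% shared had -0.95, with 47.0% of them lower. Beside those given above, Saa3 (5.73%), Cdc20 (16.3%), Trp53 (6.8%), Mmp3 (11.1%), Itga6 (5.74%), Bnip3 (18.5%) and Myh3 (7.17%) share over 5% of their words, and their ratios depend on how the aligner placed such reads. When ratios were centred on the median of 25 cells of length and GC content, replication genes were lower in 29 of 48 cases and higher in 1, mitotic genes lower in 25 of 52 and higher in 2, and interferon-stimulated genes higher in 48 of 50. Chromosomes differed little, with medians from -0.33 to 0.10 over 20 chromosomes.

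**Figure D5:**
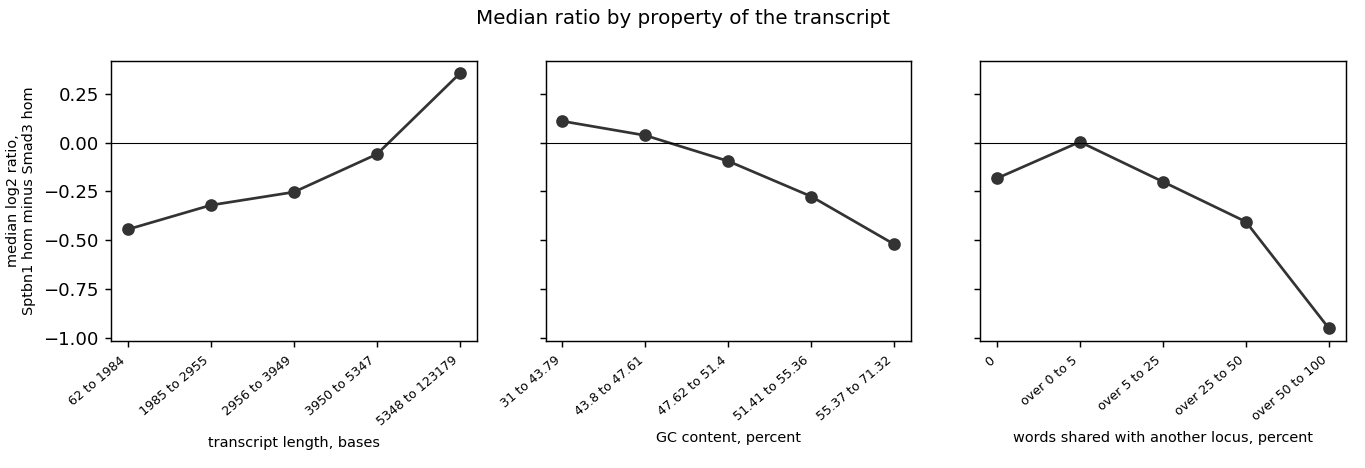
Median log2 ratio (β2SP-/- library minus the library labelled SMAD3-/-, y axis) of genes grouped by transcript length in bases, GC content in percent and the percent of 40-base words shared with another locus (x axes, labelled with the range of each group). The median rises from -0.44 to 0.36 with length and falls from 0.11 to -0.52 with GC content.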

How the data were processed

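The RNA-seq libraries came from total RNA of embryonic fibroblasts, 1 library per genotype, prepared with an Illumina TruSeq RNA kit per the labels' protocols. The authors deposited 1 table of raw counts per gene for each library, with 5 closing lines of unassigned reads, which were left out of library sizes. Tools listed in the submitters' processing notes are TopHat2 2.0.10, HTSeq, FastQC, Trimmomatic and DESeq2, with build mm9. Their settings, including strand and the handling of reads with several placements, are not given in the sources used here.

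Library sizes were scaled with TMM (edgeR 4.0.16, R 4.3.3) over the 6 libraries. For genes with 1 CPM or more in either library of the pair, the ratio of scaled counts was given its exact (Clopper-Pearson) 95% interval in Python 3.11.15 with scipy 1.17.1. Intervals and the floor of 3 counts cover counting error only, since 1 library per genotype gives no spread between replicates. Reads carry no molecular identifiers, so repeated copies of a molecule were not told apart. A gene was called when the whole interval passed 1.5-fold. With 1 library per genotype no test between genotypes can be made. The calling script was tested on simulated data with 200 changed genes. Alternatives were DESeq2 1.42.0 size factors, total counts, TMM of the pair, TMM without 615 histone and structural RNA genes, no filter, 5 CPM, 2-fold, 4-fold, and intervals widened by the dispersion of WT and both Sptbn1 libraries or of all 6. A limit of 5% on shared 40-base words, and centring by 25 cells of transcript length and GC content, were chosen after seeing the data. Transcript lengths, GC content and shared words came from GENCODE M21 (GRCm38), which matched 13451 of the genes by symbol (94.9%). Promoters came from RefSeq (GRCm38.p6), matched by symbol for 10567 genes (74.6%). No mm9 coordinates were used.

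Genes were named by rule: the targeted genes, the 12 higher and 12 lower with the largest interval bound nearest to 1-fold (without predicted models, listed histone, structural RNA and ribosomal protein genes, Xist and Y-linked genes), up to 6 called members per direction in each of 48 lists, and further members by role. The genes, lists and tests were chosen with earlier results of these data known. A few genes that this rule names are not reported here.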

Additional observations from a re-analysis of the deposited data

How the results depend on the processing

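With the interval widened by the dispersion of all 6 libraries taken as 1 group (0.330, which includes differences between genotypes), 1220 genes were higher and 210 lower, and 275 of the 415 named genes that were called lost their call. Widening by the dispersion of WT and both Sptbn1 libraries (0.0108) left 3064 and 2464. Beyond 2-fold 2624 were higher and 1921 lower, and beyond 4-fold 1403 and 368. The median log2 ratio of all genes was -0.19 with total counts, a shift of over 0.1 from -0.08, and -0.20 at 5 CPM or more. With no filter it was 0.17, of the opposite sign, over 18389 genes in place of 14170. The main comparison had 3491 higher and 3364 lower. This balance turned with total counts (3214 higher and 3840 lower) and at 5 CPM or more (2532 and 3163). It also turned, by less, with TMM without histone and structural RNA genes (3428 and 3456) and with genes of few shared words only (2797 and 2827). DESeq2 size factors gave 3676 higher and 3151 lower genes, TMM of the pair 3438 and 3428, and centring 3306 and 2623. Of the 48 lists, 41 kept the sign of their median under every scaling and centring. The 7 that did not were TGF-β receptors and SMADs, contractile, NF-κB, adipocyte, patterning, imprinted and immediate-early genes. The cause of these changes was not tested. No paired analysis was possible because each genotype had 1 library, and for the same reason no replicate could be left out. Depth limits the low end: a gene at 0 counts could be at up to 0.448 CPM in the β2SP-/- library and 0.133 CPM in the library labelled SMAD3-/-.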
